A study of Mus musculus with 7 samples.

Results

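Genes encoding transcription factors of granulopoiesis were examined by name: Cebpa, Cebpb, Cebpd and Cebpe of the C/EBP family, Gfi1, Spi1 (the gene of PU.1), Runx1, Myb, Irf8 and Lyl1. Of these 10 genes, 9 had a row in the count tables, which held 28719 gene symbols in all, and Cebpd was not analysed here. The data were single-cell RNA-seq of live CD11b+ Ly6G+ cells sorted from untreated male wild-type C57BL/6J mice, with 1 library each of bone marrow, spleen and blood in each of 2 runs, and 3 mice were pooled per library. The mice were 6 weeks old in run 1 and 8 weeks old in run 2, and each group of mice gave all 3 tissues of its run. A further library held 5 conditions told apart by hashtag antibodies, all from male C57BL/6J mice. These were blood of healthy mice, blood and joint lavage on day 7 of arthritis induced with K/BxN serum on days 0 and 2, and peritoneal and lung lavage taken 3 h after 25 ng of IL-1β. The treated mice were 8 weeks old at treatment, and no separate age is stated for the healthy mice of this library.

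Granulopoiesis is the stepwise production of neutrophils from marrow progenitors, in which primary granule proteins are made before secondary granule proteins. Dividing cells, among them preneutrophils that already make secondary granule proteins, give rise to cells that no longer divide and are released into blood. PU.1, RUNX1, MYB and C/EBPα act early in this series, GFI1 represses the monocyte programme that IRF8 promotes, and C/EBPε is required for secondary granule genes. C/EBPβ is known for driving neutrophil production under stress and for cytokine genes of mature cells, and LYL1 is a basic helix-loop-helix factor of haematopoietic progenitors.

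Between 1271 and 3823 cells were deposited per marrow library, 1219 and 4353 per spleen library and 1588 and 4653 per blood library. Cells with at least 3% of their unique molecular identifiers (UMIs) from S100a8 and S100a9 were kept as neutrophils. This left 1206 and 3426 marrow, 1135 and 2010 spleen and 1306 and 3672 blood cells in runs 1 and 2. They had medians of 775 to 2699 UMIs per cell and 1360064 to 9104133 UMIs per library. Levels are given as CPM, the UMIs of a gene per 1000000 UMIs of the summed cells, with intervals that cover counting error only. The 15 neutrophil markers, which include the rule genes, summed to 213000 to 503780 CPM in kept cells and 4279 to 15816 CPM outside the gate. Erythroid markers summed to 30353 CPM in blood of run 2 against 255 to 915 CPM in the other 5 libraries, and B-cell markers to 942 CPM in spleen of run 2 against 4.47 to 335 CPM in the others. P-values from these libraries measure how far differences between tissues, bands or cycling classes vary between libraries, after a block for run or library. The 6 libraries come from 2 groups of mice, and the band fit counts the libraries of a run as separate. Run, age and processing version cannot be told apart.

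Kept cells were divided by the share of their UMIs from Camp and Ngp, which encode secondary granule proteins: a high band of at least 3%, a middle band from 0.5% to 3% and a low band under 0.5%. Sums of fewer than 20 cells were left out, which removed the middle band of spleen in run 2 and left 17 sums of cells. The high band held 682 and 1330 marrow cells, 477 and 62 spleen cells and 132 and 27 blood cells in runs 1 and 2. Medians were 2284 to 3894 UMIs per cell in the high band and 766 to 1630 in the low band. S100a8, S100a9, Camp and Ngp set these groups and are not results. Low-band marrow also held RNA of the first granule stage. The primary granule genes Elane, Mpo, Prtn3, Ctsg and Ms4a3 summed to 4085 and 321 CPM in low-band marrow of runs 1 and 2, 246 and 163 CPM in high-band marrow, and 0 to 13.8 CPM in low-band spleen and blood.

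Promoter windows from RefSeq (build GRCm38.p6) were found for 7 of the 10 genes, 10 windows in all, each running from 250 bases before to 50 bases after a start site. They were searched on both strands for 5 motifs written here in the plus sense, the C/EBP motif TTGCNNAA, the PU.1 and ETS motif GAGGAA, the RUNX motif TGTGGT, the MYB motif AACNGNC and the GFI1 motif AAATCA, which do not overlap in the windows shown. Shown are 5 windows of 4 genes, each with a match on one or the other strand to the motif of a listed factor, and capitals mark the match. No window was found for Cebpd, Cebpe and Spi1. Positions count from 1 at the start site and are negative before it. The Cebpb window (chr2:167688665-167688964, plus strand) holds a MYB match at 1, and the Gfi1 window (chr5:107725756-107726055, minus strand) a C/EBP match at -143. The Lyl1 window (chr8:84701207-84701506, plus strand) holds an ETS match at -110. The distal Runx1 window (chr16:92826025-92826324, minus strand) holds RUNX matches at 29 and 37, and the proximal Runx1 window (chr16:92697280-92697579, minus strand) an ETS match at -46.
Cebpb: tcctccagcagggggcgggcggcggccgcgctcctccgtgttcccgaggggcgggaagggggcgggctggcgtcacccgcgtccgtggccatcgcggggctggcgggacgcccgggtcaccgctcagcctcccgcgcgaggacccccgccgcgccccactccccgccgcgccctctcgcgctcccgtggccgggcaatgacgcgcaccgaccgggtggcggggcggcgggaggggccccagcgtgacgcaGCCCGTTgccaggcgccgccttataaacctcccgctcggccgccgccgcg
Gfi1: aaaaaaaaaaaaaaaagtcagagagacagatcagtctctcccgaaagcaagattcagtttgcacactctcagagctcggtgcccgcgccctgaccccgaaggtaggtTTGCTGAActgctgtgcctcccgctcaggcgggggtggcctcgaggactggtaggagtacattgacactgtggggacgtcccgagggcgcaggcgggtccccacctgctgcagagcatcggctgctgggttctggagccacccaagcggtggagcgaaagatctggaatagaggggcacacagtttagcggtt
Lyl1: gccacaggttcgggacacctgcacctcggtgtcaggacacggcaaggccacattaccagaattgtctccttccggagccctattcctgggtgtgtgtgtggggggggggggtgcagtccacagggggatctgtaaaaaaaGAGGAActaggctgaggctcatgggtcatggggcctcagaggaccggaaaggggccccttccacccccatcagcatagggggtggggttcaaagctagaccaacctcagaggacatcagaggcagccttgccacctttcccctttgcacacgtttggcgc
Runx1 distal: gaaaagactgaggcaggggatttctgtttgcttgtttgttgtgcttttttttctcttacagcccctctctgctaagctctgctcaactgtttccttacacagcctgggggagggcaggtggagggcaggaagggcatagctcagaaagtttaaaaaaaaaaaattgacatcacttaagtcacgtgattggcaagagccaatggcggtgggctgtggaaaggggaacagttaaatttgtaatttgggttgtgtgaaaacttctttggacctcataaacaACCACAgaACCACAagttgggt
Runx1 proximal: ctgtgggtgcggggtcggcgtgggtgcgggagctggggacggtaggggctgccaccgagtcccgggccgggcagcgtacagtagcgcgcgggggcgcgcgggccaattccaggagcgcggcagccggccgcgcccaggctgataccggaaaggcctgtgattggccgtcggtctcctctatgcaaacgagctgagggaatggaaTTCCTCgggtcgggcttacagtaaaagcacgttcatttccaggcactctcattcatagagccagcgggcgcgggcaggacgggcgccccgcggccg

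Such matches are frequent and are descriptions of letters only. Of 32851 promoter windows of 27025 genes, 10.8% held the C/EBP motif, 28.3% the ETS motif, 16.8% the RUNX motif, 32.8% the MYB motif and 14.0% the GFI1 motif. The Cebpa window held a MYB match at 30, both Irf8 windows held MYB and GFI1 matches, and the Myb window and the other Gfi1 window held no match to these letters.

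Cebpe, the C/EBP factor of the secondary granule programme (chr14:54710360-54712174, minus strand, GRCm38), was far higher in cells with high Camp and Ngp. Its high-band level was 800 and 769 CPM in marrow of runs 1 and 2, 626 and 781 CPM in spleen and 421 and 718 CPM in blood. The middle-band sums lay between 77.6 and 181 CPM, and the low-band sums were 114 and 69.9 CPM in marrow, 83.0 and 31.6 CPM in spleen and 62.0 and 29.2 CPM in blood. Every high-band sum was above every middle-band and low-band sum. The log2 fold change from low to high was 3.99 ± 0.21 (SE, adjusted p = 3.0e-12, edgeR with library as a block), with 2.48 ± 0.25 from middle to high and 1.51 ± 0.25 from low to middle (adjusted p = 0.000366). All 3 calls held when any 1 library was left out and in all 12 alternative settings.

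The share of cells with a Cebpe UMI moved the same way at equal depth. With each cell thinned to 500 UMIs, 24.2% to 27.3% of high-band marrow cells, 16.1% to 24.3% of high-band spleen cells and 13.7% to 29.6% of high-band blood cells had a Cebpe UMI, against 1.14% to 4.59% of low-band cells. Among cells outside the S100 gate at that depth the share was 0.213% to 3.21%, and in blood of run 1 the low-band share of 2.43% was not above the 3.21% outside the gate.

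Cebpb (chr2:167688915-167690418, plus strand), the C/EBP factor of mature and stress-driven neutrophils, showed the opposite order. Its low-band level was 728 and 2170 CPM in marrow, 922 and 3240 CPM in spleen and 976 and 2741 CPM in blood of runs 1 and 2. In the high band it was 170 and 352 CPM in marrow, 110 and 411 CPM in spleen and 127 and 423 CPM in blood, with middle-band sums of 342 to 1342 CPM. Within each library the low band was highest, and the levels of run 2 were 2.81 to 3.52 times those of run 1 in the low band, so that groups are best compared within a run. The log2 fold change from low to high was -2.25 ± 0.14 (SE, adjusted p = 2.7e-11), and the call held without any 1 library and in all 12 alternative settings. From low to middle the log2 fold change was -0.67 ± 0.15 (adjusted p = 0.00359). That call was lost without the library block (adjusted p = 0.314) and with cells carrying other-type markers left out (adjusted p = 0.287). It held where Ly6c2 was not counted among those markers. Blood held 204 and 374 cells with at least 2 UMIs of other-type markers in runs 1 and 2. Spleen held 503 and 453 such cells, but marrow 923 and 2162. The limit was the same at any depth, and the part of other cell types in calls lost by this exclusion was not tested. Thinned to 500 UMIs, 5.24% to 27.4% of high-band cells and 24.1% to 75.1% of low-band cells had a Cebpb UMI, with the low band higher in 6 of 6 libraries, while cells outside the gate had 7.05% to 35.4%. In blood of run 1 the low-band share was 34.8% against 35.4% outside, and in marrow of run 1 24.1% against 23.1%. The cells outside are other sorted cells that may use the gene, so their share is no measure of free RNA.

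Spi1 (chr2:91082390-91115756, plus strand), the ETS factor of myeloid cells from the progenitor stage on, had UMIs in every band and was lowest in the high band of every library. High-band levels ran from 548 to 777 CPM, with 590 and 560 CPM in marrow, 618 and 707 CPM in spleen and 548 and 777 CPM in blood. Low-band levels were 1028 and 979 CPM in marrow, 1791 and 1762 CPM in spleen and 1696 and 1581 CPM in blood, so the 6 low-band sums were all above the 6 high-band sums. The log2 fold change from low to high was -0.72 ± 0.12 (SE, adjusted p = 4.0e-05), again called without any 1 library and in all 12 alternatives. From low to middle it was -0.36 ± 0.13 (adjusted p = 0.0751), which was called in 7 alternatives, among them DESeq2 (adjusted p = 0.00839) and library totals (-0.71, adjusted p = 0.00354). The step from middle to high was -0.36 ± 0.14 (adjusted p = 0.0478), which stayed called only without blood of run 1 (adjusted p = 0.0442) and was lost without each of the other 5 libraries (adjusted p = 0.0516 to 0.476). It was also lost without the block, with no filter on low counts, with an S100 gate of 1%, with the cell filters, with the rule genes out of the totals and with both exclusions of other-type markers (adjusted p = 0.0752 to 0.511).

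Cebpa (chr7:35119293-35121928, plus strand), the C/EBP factor of granulocyte and monocyte progenitors, was scarce in all sorted cells. Its low-band levels were 39.2 and 9.60 CPM in marrow, 21.6 and 7.75 CPM in spleen and 17.6 and 9.62 CPM in blood, against high-band levels of 9.47 and 6.73 CPM in marrow, 7.19 and 4.07 CPM in spleen and 3.17 and 9.83 CPM in blood. The low band was higher in 5 of 6 libraries, and in blood of run 2 the bands stood at 9.62 and 9.83 CPM. The log2 fold change from low to high was -0.88 ± 0.32 (SE, adjusted p = 0.0246), and from middle to high -1.21 ± 0.36 (adjusted p = 0.0133). Both calls were lost without marrow of run 1, at -0.46 ± 0.40 (adjusted p = 0.361) and -0.90 ± 0.48 (adjusted p = 0.184). They were also lost without the library block (adjusted p = 0.174 and 0.0859), with DESeq2 (adjusted p = 0.142 and 0.0686), for the first with no filter on low counts (adjusted p = 0.0541), and with cells carrying other-type markers left out (adjusted p = 0.389 and 0.790), but not where Ly6c2 was not counted as such a marker.

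Lyl1 (chr8:84701457-84704715, plus strand) behaved differently in the 2 runs. In run 1 its high-band level was below its low-band level in marrow (54.3 and 58.9 CPM), spleen (38.0 and 63.1 CPM) and blood (60.2 and 77.6 CPM). In run 2 the high band was above the low band in marrow (44.1 and 16.0 CPM), spleen (44.7 and 25.0 CPM) and blood (29.5 and 28.0 CPM). With edgeR's TMM scaling the log2 fold change from low to high was 0.69 ± 0.23 (SE, adjusted p = 0.0156). With library totals as the scale it was 0.21 ± 0.27 (adjusted p = 0.512). The call was also lost without blood of run 1 (adjusted p = 0.0529), without marrow of run 2 (0.41 ± 0.25, adjusted p = 0.187), and without the library block (adjusted p = 0.0954). It was lost too with other band limits (adjusted p = 0.0646) and with cells carrying other-type markers left out (adjusted p = 0.370). From middle to high Lyl1 rose by 1.19 ± 0.31 (log2, adjusted p = 0.0047), a call that held without any 1 library and on library totals but not without the block (adjusted p = 0.0567) or with cells carrying other-type markers left out (adjusted p = 0.509). Both calls held where Ly6c2 was not counted as such a marker.

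Among the progenitor factors, Myb (chr10:21124935-21160984, minus strand), a regulator of progenitor proliferation, was scarce outside marrow. Kept spleen cells held 38 and 6 UMIs in runs 1 and 2, all in the high band. Kept blood cells held 0 and 3 UMIs, of which 2 lay in the high band. The high-band level of Myb was 22.7 and 15.3 CPM in marrow, 19.5 and 24.4 CPM in spleen and 0 and 19.7 CPM in blood of runs 1 and 2. Low-band sums held no Myb UMI in both spleen libraries and in blood of run 1, 0.301 CPM in blood of run 2, and 23.5 and 5.87 CPM in marrow, where the 12 UMIs of run 1 came from 4 cells. The log2 fold change from low to high was 2.12 ± 0.62 (SE, adjusted p = 0.00679), called without each of the 5 libraries whose removal still let the gene be tested. It fell under the filter on low counts, and so was not tested, without spleen of run 2, with both other S100 gates, with the cell filters, with other band limits and with both exclusions of other-type markers. Within the low band Myb was likewise under that filter, so it entered this fit through its high-band counts. The call is therefore not read as a result. In marrow of run 1 the low band, at 23.5 CPM, was not below the high band, at 22.7 CPM. Runx1 (chr16:92601466-92826149, minus strand), with 12.9 to 36.6 CPM in the high band and 10.1 to 21.7 CPM in the low band, gave 0.67 ± 0.32 (adjusted p = 0.0816), and without marrow of run 1 it was called at 0.99 ± 0.35 (adjusted p = 0.018).

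Gfi1 (chr5:107716657-107726036, minus strand), the repressor that supports the granulocyte fate, was rare and lay mostly in the high band, which held 103 of its 108 UMIs in kept cells. Of 50 Gfi1 UMIs in each marrow library, 49 lay in high-band cells, at 15.5 and 9.16 CPM in runs 1 and 2. The high-band sum of spleen held 0 CPM in run 1 and 20.3 CPM in run 2, and both blood sums held none. Cells outside the gate held a further 31 UMIs, 12 of them in marrow of run 1 at 26.1 CPM. Gfi1 and Irf8 had too few UMIs to enter the band test, so 7 of the 9 genes were tested.

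**Figure D1:**
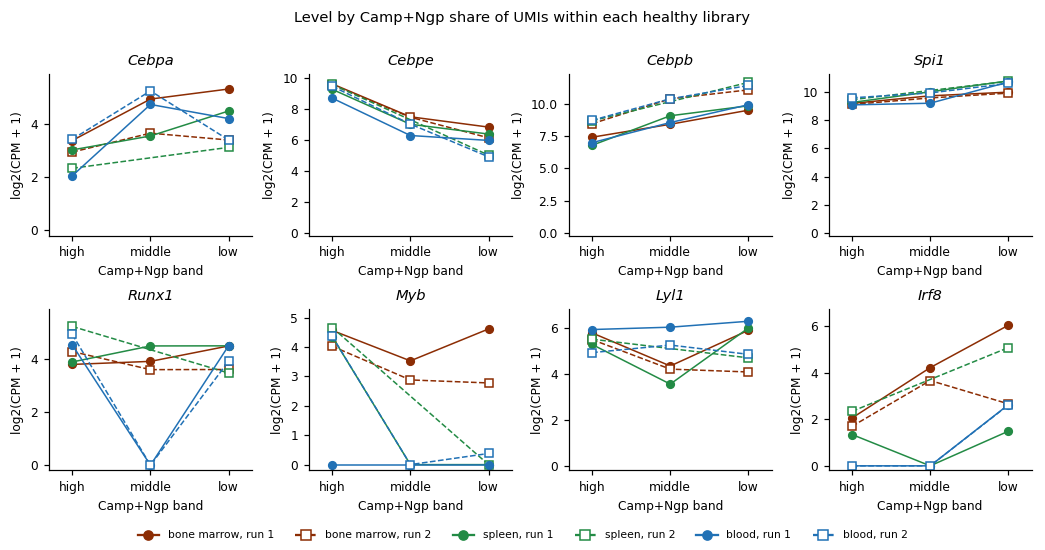
Level of each gene as log2(CPM + 1) in the high, middle and low Camp and Ngp bands of each healthy library, with 1 line per library (filled circles, run 1; open squares, run 2; no error is drawn). Cebpe falls from 421 to 800 CPM in the high band to 29.2 to 114 CPM in the low band, Cebpb and Spi1 take the opposite course in all 6 libraries, and the lines of Lyl1 and Runx1 cross.

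From low to high band, 3 of the 7 tested genes (Cebpe, Myb and Lyl1) were called higher and 3 (Cebpb, Spi1 and Cebpa) lower. Of 4165 genes tested, 55.4% were called, 27.3% higher and 28.2% lower, so that a call in this contrast was common among all genes. From middle to high, 2 were called higher and 3 lower, against 33.6% of all genes (16.1% higher and 17.5% lower), and from low to middle Cebpe was called higher and Cebpb lower, against 16.1% of all genes (8.31% higher and 7.83% lower). On library totals in place of TMM factors the median log2 fold change of all genes from low to high moved from 0.00 to -0.45, with 600 genes called higher and 1903 lower in place of 1135 and 1174. On library totals Cebpe, Myb, Cebpb, Spi1 and Cebpa kept their calls and directions, at log2 fold changes of 3.52, 1.90, -2.72, -1.20 and -1.27. Lyl1 was 0.21 ± 0.27 there, above that median of -0.45, and was not called.

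Other factors and targets of the same pathway, taken from fixed lists, moved with the bands as follows. All 8 secondary granule genes tested were higher in the high band, with a median log2 fold change of 4.28 against 0.00 for all genes. They included Orm1, Chil3, Ltf (lactoferrin, 7.10 ± 0.55) and Lcn2 (lipocalin 2, 3.20 ± 0.27), but the bands were set on Camp and Ngp of the same programme, so this direction is in part fixed by the rule. Of 6 receptor genes under C/EBP or PU.1 control, 5 were lower, among them Csf3r, the G-CSF receptor (-3.07 ± 0.19), Cxcr2, the chemokine receptor of egress (-2.13 ± 0.15), and Csf1r (-3.31 ± 0.23).

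Partners and relatives of the named factors were divided, in a contrast where 27.3% of all genes were called higher and 28.2% lower. Counts in short lists near those shares are not read as results about the lists. Of 7 genes tested from the interferon regulatory factor list, 5 were lower in the high band (Irf5 by -3.42 and Irf7 by -1.56 on the log2 scale) and Irf2bp2 was higher. A list around LYL1 held partners of its complexes and ID proteins, which keep helix-loop-helix factors from pairing. Of its 5 genes tested, the inhibitor gene Id2 (2.91 ± 0.15) and the partner genes Lmo4 and Lmo2 were higher, and of 6 other ETS factors Ets1 (2.35 ± 0.25) and Fli1 were higher while Ets2 (-1.55 ± 0.25) and Elf1 were lower. Among 4 other C/EBP family and associated genes, Ddit3 (CHOP, -2.06 ± 0.25) and Cebpg, both partners that can hold C/EBP proteins off their sites, were lower and Trib1 was higher. Of the remaining lists, Runx2 fell among 2 RUNX partners, Hdac1 rose as the single GFI1 co-repressor tested, Ep300 fell among 2 MYB-related genes, Zeb2 and Nr4a1 fell as both monocyte-lineage factors tested, and no primary granule gene passed the filter on low counts. On library totals the calls of Fli1, Trib1, Hdac1, Irf2bp2 and Lmo2 were lost, and Elf2, Elf4, Crebbp and Csf2ra were called lower as well.

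**Figure D2:**
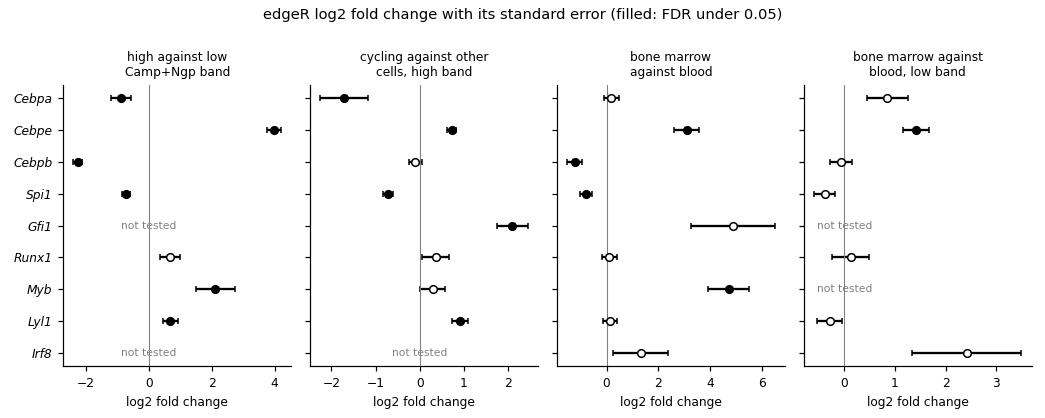
edgeR log2 fold changes with their standard errors for the 9 genes in 4 comparisons (high against low band, cycling against other high-band cells, bone marrow against blood, and bone marrow against blood within the low band); filled points have an adjusted p under 0.05 and "not tested" marks genes under the filter on low counts. Cebpe lies right of 0 in all 4 panels, from 0.72 to 3.99, and Spi1 lies left of 0 in all 4.

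The high band mixes dividing preneutrophils with cells that have left the cycle. Cells with at least 0.5% of their UMIs from a list of 40 proliferation genes, 38 of which had a row, were called cycling, and marrow held 60 and 176 such high-band cells in runs 1 and 2, spleen 17 and 16, and blood 4 and 2. Cycling marrow cells had medians of 10596 and 7743 UMIs against 3671 and 3166 in the other high-band cells. The test used the 2 marrow libraries with 1 residual degree of freedom, so leaving out a library was not possible, and spleen values are given beside it.

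Gfi1 was concentrated in cycling cells. Its level was 38.3 CPM in cycling and 9.83 CPM in other high-band marrow cells of run 1, and 25.8 and 3.07 CPM in run 2, while spleen held 0 and 0 CPM in run 1 and 45.9 and 0 CPM in run 2. Of the 42 marrow cells with a Gfi1 UMI in run 1, 41 lay in the high band and 20 were cycling, and of 44 in run 2, 43 and 31. The log2 fold change was 2.1 ± 0.35 (SE, adjusted p = 3.2e-07), and was not called without the library block (1.98 ± 0.56, adjusted p = 0.0565) or by DESeq2 (2.14 ± 0.82, adjusted p = 0.053).

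Cebpe was present in both classes and higher in cycling cells. It stood at 1271 against 685 CPM in marrow of run 1 and 1344 against 559 CPM in run 2, and at 1066 against 596 and 1231 against 423 CPM in spleen. The cycling cells were higher in 4 of 4 libraries, with a log2 fold change of 0.72 ± 0.11 (adjusted p = 8.4e-09). Lyl1 was higher in cycling cells of the same 4 libraries (94.2 against 44.4, 81.6 against 30.4, 194 against 27.4 and 73.5 against 21.9 CPM, in the same order), with 0.92 ± 0.18 (adjusted p = 1.0e-05), a call that DESeq2 did not make (adjusted p = 0.179).

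Spi1 and Cebpa were lower in cycling cells. Spi1 was 533 against 604 CPM and 423 against 610 CPM in marrow, and 444 against 629 and 542 against 839 CPM in spleen, lower in 4 of 4 libraries, with -0.72 ± 0.11 (log2, adjusted p = 2.8e-08). With library totals as the scale in place of TMM factors it was -0.36 ± 0.12 (adjusted p = 0.0054). Cebpa was 6.38 against 10.2 CPM and 2.09 against 8.43 CPM in marrow (-1.71 ± 0.54, adjusted p = 0.00615), which was not called by DESeq2 (adjusted p = 0.487) or without the block (adjusted p = 0.0714). Myb (36.7 against 19.3 CPM and 18.8 against 14.1 CPM) and Runx1 (17.6 against 11.8 and 26.5 against 15.6 CPM) were not called with TMM factors, at 0.30 ± 0.28 and 0.36 ± 0.30. Both were called on library totals (0.65 ± 0.29, adjusted p = 0.0479, and 0.70 ± 0.31, adjusted p = 0.0444). Runx1 was also called with spleen added by taking sums of at least 10 cells (0.66 ± 0.27, adjusted p = 0.0433). Cebpb went in opposite directions in the 2 marrow libraries (318 against 134 CPM and 272 against 381 CPM) and was not called, except with the cell filters, where it was lower in cycling cells (-0.64 ± 0.17, adjusted p = 0.00081).

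Thus 3 of 8 tested genes were called higher in cycling cells and 2 lower, where 50.8% of 6727 genes were called, 25.4% higher and 25.3% lower. Library totals moved the median of all genes by 0.33 on the log2 scale and the calls to 2447 higher and 1011 lower from 1710 and 1705. The same 3 higher and 2 lower genes stayed called on that scale. Gfi1 was 2.46 ± 0.35, Cebpe 1.08 ± 0.11, Lyl1 1.27 ± 0.19, Spi1 -0.36 ± 0.12 and Cebpa -1.36 ± 0.56. All 5 primary granule genes were higher in cycling cells (Elane by 3.00 ± 0.16, Prtn3 by 3.39 ± 0.21, Ms4a3 by 3.33 ± 0.19, Ctsg by 2.28 ± 0.44 and Mpo by 1.39 ± 0.31), while 3 of 8 secondary granule genes were higher and 5 lower. Of 6 GFI1 co-repressor genes, 4 were higher, and the 5 receptor genes tested were all lower. On library totals the secondary granule split became 3 higher and 2 lower (Mmp8 and Lcn2), the calls of Ltf, Cd177, Itgb2l and Csf2rb were lost, and the 5 primary granule genes and 4 GFI1 co-repressors stayed called.

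**Figure D3:**
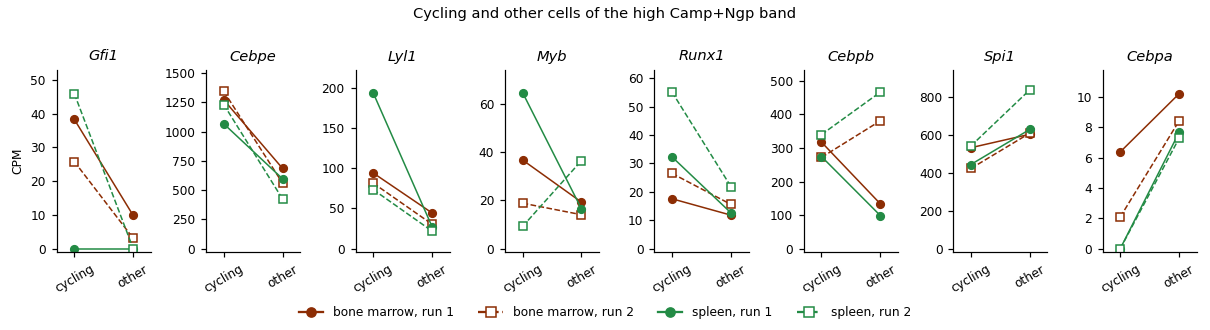
CPM of 8 genes in cycling and other cells of the high band in bone marrow (brown) and spleen (green), 1 line per library (filled circles, run 1; open squares, run 2; no error is drawn, and the spleen classes hold 17 and 16 cycling cells). Gfi1, Cebpe and Lyl1 are higher in cycling marrow cells of both runs, Spi1 and Cebpa are lower, and Cebpb lines cross between runs.

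Over all kept cells of a library, Cebpe, Myb and Gfi1 were highest in marrow. Cebpe was 635 and 503 CPM in marrow, 480 and 127 CPM in spleen and 146 and 50.8 CPM in blood of runs 1 and 2, in the order marrow, spleen, blood within each run. Myb was 21.2 and 11.5 CPM in marrow, 14.1 and 3.07 CPM in spleen and 0 and 0.862 CPM in blood. Gfi1 was 11.8 and 5.49 CPM in marrow, 0 and 3.07 CPM in spleen and 0 and 0.575 CPM in blood. The 2 spleen libraries lay far apart for Cebpe. The share of kept cells in the high band was 42.0% and 3.08% in them, 56.6% and 38.8% in marrow and 10.1% and 0.735% in blood. Between runs, the level of Cebpe in each tissue, and of Myb in marrow and spleen, was higher where the share of high-band cells was higher. Gfi1 in spleen was not, with 0 CPM at 42.0% and 3.07 CPM at 3.08%. Less RNA per cell cannot be told apart in such sums from fewer cells of a kind.

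Cebpb was 260 and 930 CPM in marrow, 307 and 2849 CPM in spleen and 745 and 2652 CPM in blood. Spi1 was 678 and 690 CPM in marrow, 889 and 1621 CPM in spleen and 1367 and 1548 CPM in blood. Marrow was thus lowest for both genes in each run, and the order of spleen and blood reversed between runs. Cebpa (7.16 to 15.8 CPM), Runx1 (13.8 to 20.6 CPM) and Lyl1 (28.1 to 72.8 CPM) had overlapping tissues.

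**Figure D4:**
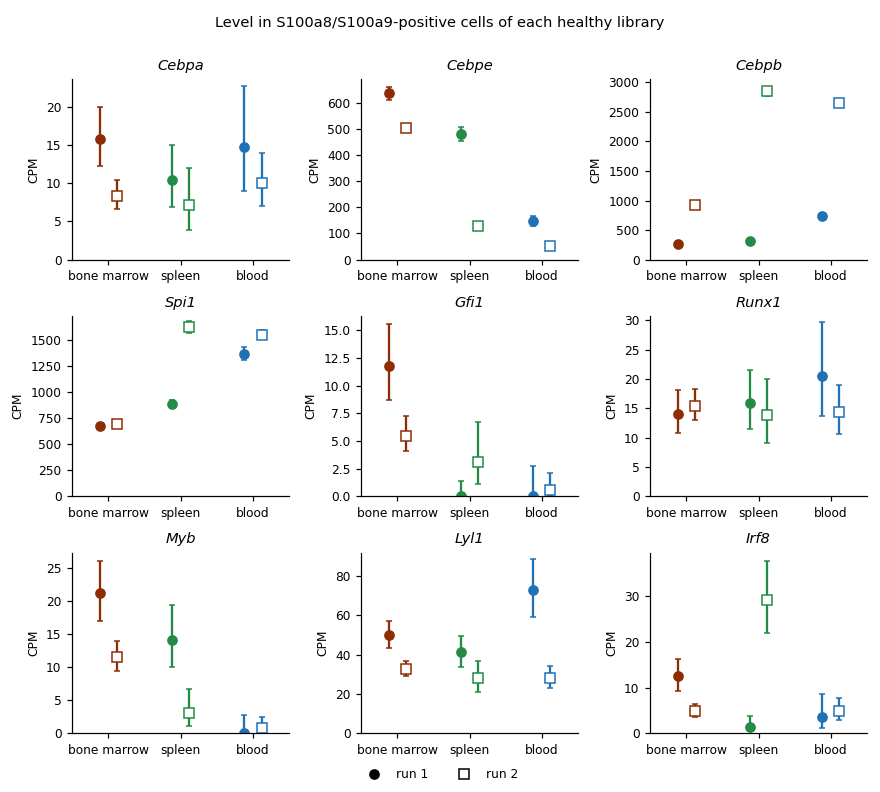
CPM of the 9 genes in the kept cells of each healthy library by tissue (filled circles, run 1; open squares, run 2), with 95% Poisson intervals that cover counting error only. Cebpe, Myb and Gfi1 are highest in bone marrow in each run, Cebpb and Spi1 are lowest there, and Cebpb in spleen moves from 307 CPM in run 1 to 2849 CPM in run 2.

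Against blood, marrow was called higher for Cebpe (log2 fold change 3.10 ± 0.49, adjusted p = 0.00768) and Myb (4.73 ± 0.80, adjusted p = 0.00983, with 0 and 3 UMIs in blood). It was called lower for Cebpb (-1.23 ± 0.29, adjusted p = 0.0268) and Spi1 (-0.80 ± 0.23, adjusted p = 0.0458). Run was a block in this fit. These were 4 of 9 genes tested, 2 in each direction, while 21.7% of 7809 genes were called, 9.94% higher and 11.7% lower. Gfi1 was 4.88 ± 1.62 (adjusted p = 0.0721). It was called by DESeq2 (5.50 ± 1.84, adjusted p = 0.0251), with an S100 gate of 6% (adjusted p = 0.0493) and without spleen of run 1 (adjusted p = 0.00314), spleen of run 2 (adjusted p = 0.0145) or marrow of run 2 (adjusted p = 0.0407). The log2 fold changes of Cebpa, Runx1, Lyl1 and Irf8 were between 0.12 and 1.33 and not called. All 4 calls were lost without blood of run 1 or without blood of run 2 (adjusted p between 0.0704 and 0.321) and without the run block (adjusted p between 0.0899 and 0.561). Cebpb was also lost without marrow of run 2 (adjusted p = 0.0993), and Spi1 without either marrow library (adjusted p = 0.169 and 0.354). With cells carrying other-type markers left out, Cebpb (-0.47, adjusted p = 0.0734) and Spi1 (-0.44, adjusted p = 0.0824) were not called. Myb was not among the genes called in that setting, which left Cebpe alone of the 4. Spi1 was not called either with Ly6c2 not counted as such a marker, with no filter on low counts or with the cell filters (adjusted p = 0.0560 to 0.0859). On library totals the same 4 genes were called, with 478 genes higher and 985 lower in place of 776 and 917.

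By edgeR, none of the 9 genes was called between spleen and blood or between marrow and spleen. Cebpe was 1.73 ± 0.47 higher in spleen than in blood (log2, adjusted p = 0.374) and 1.37 ± 0.47 higher in marrow than in spleen (adjusted p = 0.205), and 0.0512% and 2.75% of all genes were called in those comparisons. At an unadjusted p under 0.05, Cebpe and Myb passed between spleen and blood, and Cebpe, Cebpb and Spi1 between marrow and spleen, while DESeq2 called Cebpe in both (adjusted p = 0.00512 and 0.0129). With cells carrying other-type markers left out, edgeR called Cebpe (1.63 ± 0.33, adjusted p = 0.0038) and Spi1 (-0.56 ± 0.17, adjusted p = 0.040) in marrow against spleen. Calls also appeared when single libraries were left out. A tissue fit with 1 library left out has 1 residual degree of freedom, and a tissue left with 1 library is assumed to vary like the others. Without spleen of run 1, marrow against spleen called Cebpe (2.16 ± 0.35, adjusted p = 0.000289), Cebpb, Myb and Irf8, and without marrow of run 1 it called Cebpe (2.21, adjusted p = 2.3e-05). Spleen against blood called Cebpe and Myb without spleen of run 2 (Cebpe 2.39 ± 0.35, adjusted p = 0.0253) or marrow of run 1, these and Irf8 without marrow of run 2, and Irf8 alone without spleen of run 1.

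The wider lists were counted between marrow and blood as well, where 9.94% of all genes were called higher and 11.7% lower. All 8 secondary granule genes were higher in marrow (Fcnb by 5.77 ± 0.48 and Ltf by 3.62 ± 0.75), as were 4 of 5 primary granule genes. There were 1350 and 647 Elane UMIs in marrow and none in blood, and 505 and 197 Mpo UMIs in marrow against 0 and 1 in blood. Of 7 genes of the interferon regulatory factor list 6 were lower, and of 6 receptor genes 5 were lower, with Csf3r at -2.84 ± 0.32. Id2, Lmo2 and Lmo4 were higher of 7 genes of the list around LYL1, and Ets1 and Erg were higher and Ets2 lower of 12 ETS factors. Ddit3 and Cebpg were lower of 4 C/EBP-related genes, Hdac2 higher of 6 GFI1 co-repressors, Ep300 lower of 2 MYB-related genes, both monocyte-lineage factors lower, and none of 4 RUNX partners was called by edgeR. On library totals Lmo2 and Lmo4 were not called, and the other counts were the same.

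Tissues were also compared within a band. In the low band Cebpe was still higher in marrow, at 114 and 69.9 CPM against 62.0 and 29.2 CPM in blood (log2 fold change 1.42 ± 0.26, adjusted p = 0.0118) and 83.0 and 31.6 CPM in spleen (1.16 ± 0.27, adjusted p = 0.0356). The primary granule genes were higher in the same low-band marrow sums, and of the secondary granule genes 7 of 7 were called higher in low-band marrow than in blood (median log2 fold change 3.32) and 6 of 7 than in spleen. Their part in this difference was not tested. Cebpe was the single gene called of 7 tested in each comparison, where 7.9% and 6.38% of genes were called. The first call was lost without either blood library or marrow of run 2 (adjusted p = 0.0709 to 0.185). The second was lost without either blood library, marrow of run 2 or spleen of run 2 (adjusted p = 0.0562 to 0.347). Both were lost without the run block (adjusted p = 0.328 and 0.492). With other band limits both were lost (adjusted p = 0.103 and 0.231), as with DESeq2 (adjusted p = 0.0702 and 0.249). Between spleen and blood edgeR called none, with none at an unadjusted p under 0.05 and none by DESeq2, against 0.0989% of all genes. On library totals Spi1 was called lower in low-band marrow than in blood (-0.71 ± 0.13, adjusted p = 0.0133) and spleen (-0.82 ± 0.13, adjusted p = 0.00894), and the call of Cebpe against spleen was lost (adjusted p = 0.0682). The medians of all genes moved on that scale to -0.34 and -0.39, with 143 genes higher and 617 lower, and 107 higher and 587 lower, in place of 240 and 239, and 197 and 190.

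In the high band, none of the 8 genes tested was called between marrow and spleen by edgeR or DESeq2, and none passed an unadjusted p of 0.05. The log2 fold changes ran from -0.49 ± 0.41 (Runx1) to 1.94 (Gfi1), with Cebpe at 0.14 ± 0.23, and 0.125% of 5583 genes were called. For Myb the change from low to high band was called different between marrow and spleen, at -7.14 ± 1.53 (log2, adjusted p = 0.00573), as were 2.43% of genes. Low-band spleen cells held no Myb UMI in either library, so the size of this value depends on the prior count and is not a bound. Within the low band Myb was under the filter on low counts, so it entered this fit through its high-band counts. The call is therefore not read as a result. The call was lost without spleen of run 2 (adjusted p = 0.13), without the library block (adjusted p = 0.308), and with other band limits (adjusted p = 0.180). It was also lost with an S100 gate of 6% and with cells carrying other-type markers left out, whether Ly6c2 was among those markers (-3.09) or not (-2.46, adjusted p = 0.720). DESeq2 gave this gene no adjusted p. Without spleen of run 1, Cebpe was called as well, at -1.63 ± 0.40 (adjusted p = 0.0126).

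Irf8 (chr8:120736358-120756694, plus strand), the factor that steers progenitors to monocytes and dendritic cells, was near absent from neutrophils and plentiful in the sorted cells outside the S100 gate. Inside the gate it stood at 12.5 and 4.83 CPM in marrow, 1.49 and 29.1 CPM in spleen and 3.68 and 4.88 CPM in blood of runs 1 and 2. Outside it stood at 683 and 508 CPM in marrow, 497 and 273 CPM in spleen and 398 and 24.8 CPM in blood, above the kept cells in 6 of 6 libraries. All 33 low-band UMIs in marrow of run 1, where primary granule genes stood at 4085 CPM, came from 2 cells. With all libraries and the settings used throughout, Irf8 was not called. With an S100 gate of 1% it was called higher in marrow than in blood (adjusted p = 0.025) and, in the low band, higher in marrow (adjusted p = 0.00022) and spleen (adjusted p = 0.0038) than in blood. The low-band calls were also made with no filter on low counts (adjusted p = 0.0011 and 0.034). Spleen of run 2, at 29.1 CPM of Irf8, was the library whose kept cells carried 942 CPM of B-cell markers, and their part in these calls was not tested. The values that follow come from fits with 1 library left out, where a tissue left with 1 library is assumed to vary like the others. Over all kept cells Irf8 was higher in marrow than in blood without marrow of run 2 (log2 fold change 3.56). Spleen was called higher than blood without spleen of run 1 (2.85 ± 0.50) or marrow of run 2 (1.69 ± 0.51), and marrow lower than spleen without spleen of run 1 (-1.91 ± 0.46). In the low band it was called higher in marrow than in blood without spleen of run 1 (2.05), spleen of run 2 (2.06) or marrow of run 2 (5.27). There it was also called higher in spleen than in blood without spleen of run 1 (3.29), and in marrow than in spleen without marrow of run 2 (3.22) or spleen of run 2 (4.74).

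In the inflammation library the authors' class of neutrophils held 509 cells of healthy blood, 814 of arthritic blood, 2857 of arthritic joint, 292 of IL-1β peritoneum and 380 of IL-1β lung. Each condition was 1 sample, so there is no test, and ratios to healthy blood are given with exact 95% intervals that cover counting error only. Nearly all these cells, 508 of 509 in healthy blood and all 2857 in joint, had under 0.5% of UMIs from Camp and Ngp.

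Cebpb was highest in the joint and the lavages. Its level was 1126 CPM in healthy blood, 1666 CPM in arthritic blood, 6284 CPM in joint, 4326 CPM in peritoneum and 5695 CPM in lung. Relative to healthy blood this was 1.48 times (1.39 to 1.58) in arthritic blood, 5.58 times (5.28 to 5.90) in joint, 3.84 times (3.61 to 4.09) in peritoneum and 5.06 times (4.76 to 5.37) in lung. Thinned to 1000 UMIs a cell, with 155, 140, 123, 61 and 94 shallower cells left out in the 5 conditions, 57.6% of healthy blood cells had a Cebpb UMI, and 80.0%, 97.9%, 94.8% and 98.6% of the other 4 conditions in the same order. Over all cells at their own depth the shares were 78.2%, 89.8%, 99.4%, 96.2% and 93.2%. Joint exceeded arthritic blood 3.77 times (3.66 to 3.89) and lung exceeded peritoneum 1.32 times.

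Runx1 was also higher in the inflamed sites, with 46.2 CPM in healthy blood, 39.7 CPM in arthritic blood, 123 CPM in joint, 222 CPM in peritoneum and 179 CPM in lung. The ratios were 2.65 (2.01 to 3.57) in joint, 4.80 (3.52 to 6.63) in peritoneum and 3.88 (2.86 to 5.35) in lung, and 0.859 in arthritic blood. The share of cells with a Runx1 UMI at 1000 UMIs, over the same cells, was 3.11% in healthy blood, 2.97% in arthritic blood, 11.4% in joint, 22.9% in peritoneum and 16.4% in lung.

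Cebpe, Lyl1 and Cebpa were lower. Cebpe was 42.7 CPM in healthy blood, 24.5 CPM in arthritic blood, 18.2 CPM in joint, 8.49 CPM in peritoneum and 6.06 CPM in lung. Lyl1 was 68.5 CPM in healthy blood and 18.2, 20.7, 2.12 and 3.03 CPM in the others in the same order, with 2 UMIs in peritoneum (ratio 0.031, 0.00369 to 0.116). Cebpa was 25.8 CPM in healthy blood and 18.9 and 4.57 CPM in arthritic blood and joint, with 1 UMI each in peritoneum (ratio 0.0411, 0.00101 to 0.248) and lung (0.0294, 0.000719 to 0.177). Spi1 was 1171, 1113, 773, 876 and 467 CPM in the 5 conditions, with ratios of 0.950, 0.660, 0.748 and 0.399.

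**Figure D5:**
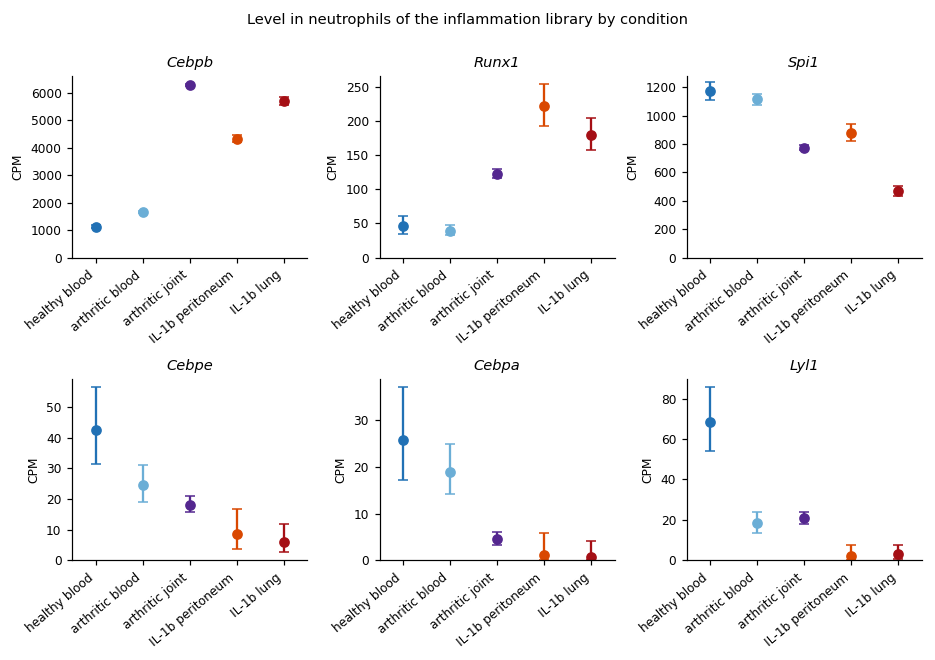
CPM of 6 genes in neutrophils of the 5 conditions of the inflammation library, with 95% Poisson intervals that cover counting error only (1 sample per condition). Cebpb and Runx1 are above healthy blood in joint, peritoneum and lung, and Cebpe, Cebpa and Lyl1 are below it there, with Cebpb at 6284 CPM in joint against 1126 CPM in healthy blood.

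Gfi1, Myb and Irf8 were close to 0 in all 5 conditions. Gfi1 had 1, 2, 19, 0 and 2 UMIs in healthy blood, arthritic blood, joint, peritoneum and lung, Myb 0, 0, 2, 1 and 0, and Irf8 0, 0, 1, 0 and 0. A count of 0 in healthy blood allows up to 2.67 CPM.

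Past a 2-fold ratio, with at least 10 UMIs in either sample, Lyl1 was lower in arthritic blood. Cebpb and Runx1 were higher and Cebpa, Cebpe and Lyl1 lower in joint. Gfi1 also passed the ratio in joint, at 2.08 times healthy blood, but on 1 UMI there, with an interval of 0.330 to 86.3 that leaves no direction to read. In peritoneum and lung Cebpb and Runx1 were higher and Cebpa, Cebpe and Lyl1 lower, with Spi1 lower in lung as well. Among all genes, 2.08% were past 2-fold higher and 11.7% lower in arthritic blood, 13% and 26.2% in joint, 10.0% and 55.2% in peritoneum and 11.2% and 52.0% in lung. Joint was past 2-fold above arthritic blood for Cebpb and Runx1, and for Gfi1 on 2 UMIs in blood (2.49 times, 0.600 to 22.0), and below it for Cebpa, against 17.5% and 9.24% of genes, and lung and peritoneum were within 2-fold for the 3 genes tested, against 12.6% and 9.47%.

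The scale matters for the lower genes, since the median gene was below healthy blood on library totals, by 0.39, 0.50, 1.15 and 1.06 log2 units in arthritic blood, joint, peritoneum and lung. With TMM factors, 5.59% of genes were past 2-fold higher and 4.3% lower in arthritic blood, 20.8% and 10.2% in joint, 19.5% and 27.8% in peritoneum and 21.3% and 26.5% in lung. On that scale Cebpb was 2.04, 8.20, 7.22 and 9.44 times healthy blood and Runx1 1.18, 3.90, 9.02 and 7.25 times. Cebpe (0.791, 0.626, 0.374 and 0.265) and Lyl1 (0.366, 0.445, 0.0583 and 0.0826) stayed lower, while Spi1 turned to 1.31 in arthritic blood and 1.41 in peritoneum, and Cebpa to 1.01 in arthritic blood. Spi1 in lung (0.745) and Cebpe in joint were then no longer past 2-fold.

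Relatives and targets of these factors in inflamed sites included both directions. Trib1, which promotes C/EBPα degradation, was 6.98, 7.32 and 6.59 times healthy blood in joint, peritoneum and lung, and the ETS factor Ets2 4.87, 5.27 and 5.51 times. Egr1, an immediate early factor, was 33.4 times in joint and 29.1 times in lung and 4.66 times in peritoneum, and Csf2rb, the shared receptor chain for GM-CSF and IL-3, 2.69, 3.51 and 3.34 times. Csf3r was 0.525, 0.475 and 0.291 times. Of 4 RUNX partner genes with enough UMIs, all 4 were past 2-fold lower in peritoneum and in lung, where 55.2% and 52.0% of all genes were, and 1 of 4 (Runx3) in joint. Of the secondary granule genes other than Camp and Ngp 4 of 6 were past 2-fold higher in peritoneum and 6 of 7 in lung, Lcn2 at 14.5 and 5.04 times. In joint 1 of 6 was higher (Ltf) and 3 were lower (Chil3, Cd177 and Mmp8 at 0.382, 0.396 and 0.419 times), with Lcn2 at 1.03 times. With TMM factors 3 of the 4 RUNX partners stayed past 2-fold lower in each lavage, 6 of 6 and 7 of 7 of those secondary granule genes were past 2-fold higher there, in joint 1 of 6 was higher and none lower, and Csf3r was past 2-fold in none of the 3 sites.

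Some genes followed the named factors closely over the 17 sums of library and band, which share libraries, depth and the band rule, so the values are descriptions. Among 3256 genes, those with the highest Pearson correlation of log2(CPM + 1) to Cebpe were Gca, Chil3 and Ltf (r = 0.97, 0.97 and 0.95). For Cebpb they were Btg1, Lmnb1 and Gpx4 (0.98, 0.98 and 0.97), for Spi1 Atox1, Cdk2ap2 and Zyx (0.97 each). For Runx1 they were Rabif, Cdc37 and Flii (0.95 each), for Lyl1 Ppil2, Slc35c2 and Mrpl57 (0.82, 0.82 and 0.81) and for Myb Rrm2, Fcnb and Nusap1 (0.87, 0.86 and 0.84). Cebpe thus ran with Chil3 and Ltf of the secondary granule list. Myb ran with Fcnb of that list as well as with Rrm2 and Nusap1, which serve DNA synthesis and the spindle.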

How the data were processed

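The deposited tables hold UMI counts per gene and cell; per the labels and methods, the authors made them with Cell Ranger 1.2.0 (run 1), 2.1.0 (run 2) and 3.0.2 (inflammation library) on mm10, and kept singlets by hashtag in the last. The annotation version is not given in the sources used here, and run 1 tables list only detected genes, so a missing row there was read as 0. Cell barcodes shared by 2 libraries numbered 0 to 36, and doublets were not called in the healthy libraries. Raw counts were summed per library, band and cycling class and tested with edgeR 4.0.16 in R 4.3.3 (quasi-likelihood test, TMM factors, filterByExpr, Benjamini-Hochberg adjustment over all genes tested, threshold 0.05), with run or library as a block. Same-run libraries come from the same mice, and their deviations from tissue means correlated at 0.5495 to 0.6311 over 7809 genes. With 2 runs this is a run difference shared by the tissues, in which mice, age and processing version cannot be told apart. Alternatives were DESeq2 1.42.0, other gates, bands, filters and scales, no block and each library left out. Ratios in inflammation used exact conditional binomial intervals from scipy 1.17.1. In data simulated for high against low band, 93 of 100 genes changed 2-fold were recovered, for cycling 27 of 100 and for marrow against blood 32 of 100. The changed genes were all well counted, at a fixed dispersion and with no run or library effect. These rates therefore do not cover the scarce genes. The genes and lists were chosen with earlier results of these data known. Named were all members, of each other list at most 4 called genes by adjusted p in band and tissue comparisons, at most 3 past 2-fold per inflamed condition and list, and the 3 genes most alike, which for Cebpa are not reported here, nor for Gfi1 and Irf8 with their few UMIs. Scales by library totals, and the exclusion of other-cell markers without Ly6c2, were chosen after seeing the data. Coordinates are from GENCODE vM21 (GRCm38).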

Additional observations from a re-analysis of the deposited data

Results flagged for a closer look

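The change of Myb from low to high band was called different between marrow and spleen, at -7.14 on the log2 scale (marrow minus spleen). Myb entered that fit through its high-band counts, so the call is not read as a result. Low-band marrow held 12 Myb UMIs in 4 cells of run 1 and 11 in 6 cells of run 2, where its level was 5.87 CPM against 15.3 CPM in the high band, and low-band spleen held none in either run. The call was lost in 6 alternatives, each named in the report, and DESeq2 gave no adjusted p.

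Irf8 reached 683 CPM in the cells of marrow run 1 that lay outside the S100 gate and entered no fitted test, and cells outside the gate exceeded the kept cells in 6 of 6 libraries. An Irf8 UMI was present in 55.4% and 38.8% of the marrow cells outside the gate in runs 1 and 2, in 27.4% and 30.1% of those in spleen, and in 25.2% and 3.57% of those in blood, while 0.30% to 2.29% of kept cells had one.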

How the results depend on the processing

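Counts are of the 9 genes called and, where they moved by over 1.5 times, of all genes called. The cause of the changes was not tested, and no named gene reversed its direction where it was called. Same-run libraries are paired by their mice, so the replicate block was kept in the fits. Without the replicate block, the count of the 9 genes went from 4 to 0 in marrow against blood (all genes 1693 to 164), 2 to 1 from low to middle band, 5 to 2 from middle to high, 5 to 3 in cycling (3415 to 1711), 1 to 0 in low-band marrow against blood (479 to 0) and spleen (387 to 0) and 1 to 0 for the difference of band effects (153 to 1), with all-gene counts also falling from 4, 215, 6 and 7 to 0 in spleen against blood, marrow against spleen, low-band spleen against blood and high-band marrow against spleen. With DESeq2 it was 1 in place of 0 in spleen against blood (29 genes in all) and in marrow against spleen, 2 in place of 5 in cycling (961 in all), and 0 in place of 1 in low-band marrow against blood (237) and spleen (193) and for the difference, where Myb had no adjusted p, with 1093 genes in marrow against blood, 2 in low-band spleen against blood and 0 in high-band marrow against spleen. With cells carrying other-type markers left out it was 1 in marrow against blood, 2 in marrow against spleen (930 genes in all), 3 in high against low (1285), 1 in middle against low (104), 2 in high against middle (431) and 0 for the difference (65), which was also 0 with Ly6c2 not counted (277), while low-band marrow gave 736 genes against blood and 677 against spleen (1037 and 900 with Ly6c2 not counted), low-band spleen against blood 12, spleen against blood 7 and high-band marrow against spleen 1 with Ly6c2 not counted. Bands cut at 5% and 0.2% gave 3 in high against low, and 0 in low-band marrow against blood (157 in all) and spleen (122) and for the difference (61). Library totals gave 2 in low-band marrow against blood (760), with 694 genes against spleen, 1103 from low to middle and 1 in low-band spleen against blood. No filter on low counts gave 2 in low-band marrow against blood (736) and 1 in low-band spleen against blood (61), with 3625 genes in high against low, 2360 in high against middle, 605 in low-band marrow against spleen and 18 in both spleen against blood and high-band marrow against spleen. An S100 gate of 1% gave 4 in low-band marrow against blood (1021), 1 in low-band spleen against blood (49) and 2 in low-band marrow against spleen, with 94 genes for the difference, and a gate of 6% gave 0 for the difference (291) with 873, 17 and 750 genes in the low band and 7 in spleen against blood. Cell filters gave 854, 26 and 816 genes in the low band, 115 in marrow against spleen, 2 in high-band marrow against spleen and 259 for the difference. Leaving out 1 library gave 0 to 5 of the 9 genes in marrow against blood (all genes 0 without blood of run 2 and 57 without blood of run 1, to 2626 without spleen of run 1), 0 to 3 in spleen against blood (0 to 245), 0 to 4 in marrow against spleen (0 to 1250), 0 to 3 in low-band marrow against blood (57 to 861), 0 to 1 in low-band spleen against blood (0 to 100) and marrow against spleen, and 0 to 2 for the difference. At 1 sample a condition, TMM factors put 2 genes past 2-fold in arthritic blood in place of 1. Leave-one-out and the exclusion of other-type markers could not be fitted for cycling, where 2 libraries leave 1 residual degree of freedom. Gfi1, Myb and Irf8 rest on few UMIs in kept cells, at under 40 CPM in every tissue sum.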

Other observations

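Other genes of the pathway were called between cycling and other cells of high-band marrow, where 50.8% of all genes were called. Irf7 (log2 fold change -2.09 ± 0.33, edgeR, adjusted p = 7.4e-08) and Irf2 (-1.42 ± 0.24), factors of the interferon response, were lower in cycling cells, as were Trib1 (-3.39 ± 0.33), Ets2 (-1.23 ± 0.38) and the acetyltransferase gene Ep300 (-1.17 ± 0.30). Cbfb, the partner subunit of RUNX factors, was higher (1.33 ± 0.19), as were the inhibitors of helix-loop-helix factors Id1 (1.07 ± 0.17) and Id2 (0.89 ± 0.13) and the deacetylase genes Hdac2 (1.72 ± 0.28) and Hdac1 (0.86 ± 0.17). All 10 of these genes were called in the same direction on library totals. From the same lists, Irf2bp2 was called higher (0.74 ± 0.19), and Runx2 (-1.30 ± 0.52) and Lmo4 (-0.37 ± 0.12) were called lower. The calls of Runx2 and Lmo4 were lost on library totals.

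Within the low band, marrow was higher than blood for 5 of 5 primary granule genes and 7 of 7 secondary granule genes tested (Cd177 by 3.12 ± 0.38 and Mmp8 by 2.54 ± 0.33 on the log2 scale), and lower for Nr4a1 (-2.89 ± 0.52), Zeb2 (-1.07 ± 0.27), Ddit3 (-0.93 ± 0.24), Irf1 (-1.02 ± 0.22), Irf7 and 3 of 6 receptor genes, with Csf3r at -1.47 ± 0.24. None of 11 ETS factors, 4 GFI1 co-repressors or 7 genes of the list around LYL1 was called there by edgeR with TMM factors, where 7.9% of all genes were called. On library totals 5 of 6 receptor genes were lower, as were Irf9 and the ETS factor Ets2.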
